A study of Mus musculus with 40 samples.

Results

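The translation initiation factors are the proteins that bring a messenger RNA and the initiator transfer RNA to the ribosome. Their genes were taken by symbol: all symbols from Eif1 to Eif6, without the Eif2ak kinases and the processed pseudogenes, with a mean normalized count of 10 or more in the table concerned. The rule gave 48 genes of 20078 in any table, namely 47 per table and 48 in the male gWAT one, with 46 shared by all tables. Another 2 genes with such symbols, Eif3j2 and Eif5a2, stayed below a mean of 10 in each table that lists them.

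RNA was measured in liver and in gonadal white adipose tissue (gWAT, the fat beside the gonads) of C57BL/6J mice whose fathers had received nicotine or the control treatment, called DMSO in the table headers. The groups were daughters and sons of nicotine-exposed fathers and daughters and sons of control fathers, in each tissue, with 5 libraries per group except for 4 control columns in male gWAT. All samples carry batch number 1, and the labels give no age, litter or father, so a p-value speaks only to the scatter among these libraries, part of which may be technical. Libraries were 3′-tag libraries, which count short reads near transcript ends, and held 1543208 to 2239073 reads.

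In initiation, eIF2 carries the initiator transfer RNA to the small ribosomal subunit and eIF2B reloads eIF2 with GTP. The eIF3 complex holds the small subunit together with eIF1 and eIF1A, eIF4 proteins bind the cap and unwind the mRNA, and eIF5 and eIF5B trigger GTP hydrolysis and subunit joining. Insulin and nutrients act on the pathway in liver and fat through mTORC1, which phosphorylates the eIF4E-binding proteins, while stress kinases phosphorylate eIF2 alpha.

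Tissue markers matched the labels: the 6 hepatocyte genes summed to at least 49060.5 normalized counts in the male nicotine livers and more in every other liver group, and the 6 adipocyte genes summed to between 4496 and 16530 in gWAT and at most 102 in liver. Some libraries also held transcripts of other tissues. In female liver, nicotine library 5 and control library 4 held skeletal muscle transcripts (304 and 178 summed normalized counts over 7 genes). In male liver, nicotine library 4 held muscle transcripts (6576) and nicotine library 2 pancreatic ones (7795 over 6 genes). In female gWAT, control library 2 held muscle (24418) and control library 4 ovarian transcripts (361 over 6 genes). Muscle sums there were also raised in nicotine library 2 (1389) and the next library (994), against medians of 147 in nicotine libraries and 117 in controls. In female liver, nicotine library 5 also held ovarian transcripts (160). In male gWAT, nicotine library 1 and control library 1 held epididymal transcripts (18965 and 26087 over 6 genes). Macrophage genes there summed to 3690 in nicotine library 3 and 983 in the next library. In male liver, 5 male-biased genes (Cyp4a12a, Elovl3, Cyp7b1, Hsd3b5 and Selenbp2) summed to 98.6 and 239 in nicotine libraries 1 and 5, against 1505 to 2905 in the other nicotine libraries and 1358 to 4254 in controls.

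The question was whether the father's exposure changed the initiation factor messages of the offspring, and female gWAT held most of the changes. Of 47 genes tested there, 8 rose (17.0%) and 6 fell (12.8%) in the nicotine group by limma at an adjusted p under 0.05 over all genes of the table. Over all 10532 genes tested, 12.4% rose and 12.8% fell, so the share that fell equalled that of all genes and the share that rose was a little higher. The median log2 change of the 47 genes was 0.00, against -0.03 over all genes. The called genes went in both directions for eIF3 (2 higher, 2 lower) and for cap binding and unwinding (1 higher, 4 lower). Those called for eIF2, eIF2B and subunit joining and release all rose. Groups did not overlap for 8 higher and 3 lower genes, against 8.48% and 8.19% of all genes. In bulk tissue, fewer cells of a type and less RNA per cell cannot be told apart.

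**Figure D1:**
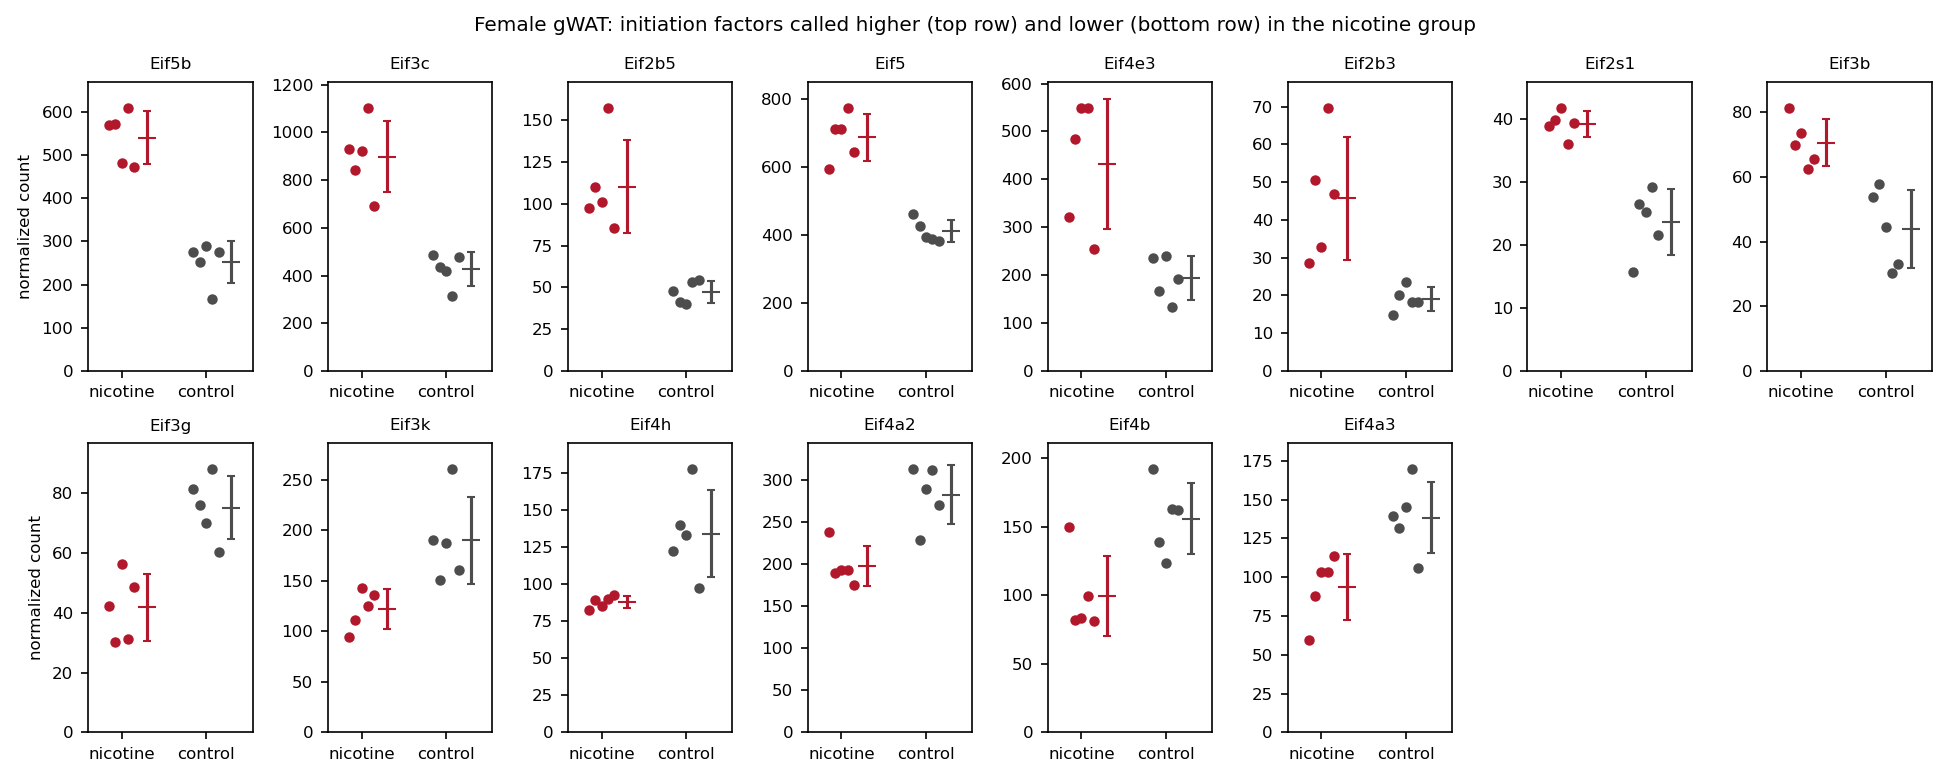
Normalized counts (vertical axes, from 0) of the 14 initiation factor genes called in female gWAT, with 1 point per library (5 nicotine, 5 control) and the mean with its SD beside the points. The 8 genes of the top row and Eif3g, Eif3k and Eif4h of the bottom row have no overlap between groups.

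Of the 4 genes of subunit joining and release 2 rose, Eif5b and Eif5. Eif5b, which encodes the GTPase that joins the ribosomal subunits and lies on chromosome 1 at 37998010 to 38055579, had 569, 571, 481, 609 and 473 normalized counts in nicotine libraries, against 276, 253, 288, 167 and 275 in controls. No nicotine library overlapped a control, and the log2 change was 1.12 (SE 0.17, limma adjusted p = 6.49e-04). Eif5b shares 1643 exon bases with Rev1 on the opposite strand, which averaged 31.7 ± 10.2 in nicotine libraries and 25.9 ± 6.25 in controls (adjusted p = 0.471). Eif5, whose product activates the GTPase of eIF2, had 595, 712, 711, 774 and 644 in nicotine libraries, against 461, 426, 395, 388 and 383 in controls, again without overlap (log2 change 0.74, SE 0.14, limma adjusted p = 0.00203). It shares 127 exon bases on the same strand with the small nucleolar RNA gene Snora28, so its reads cannot be assigned with certainty. Summed over Eif5, Eif5a, Eif5b and Eif6, the counts were 1250 to 1542 in the nicotine group and 728 to 861 in controls. The called genes Eif5 and Eif5b had the highest counts in this sum, so its separation is not independent of their calls. Eif5a averaged 110 ± 39.1 in nicotine libraries and 105 ± 24.3 in controls (SD, n = 5 each), and Eif6, an anti-association factor of the large subunit, 51.0 ± 10.6 in nicotine libraries and 44.6 ± 4.85 in controls, with overlap in both cases.

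Of the 5 eIF2B genes 2 rose. Eif2b5, the catalytic subunit of this exchange factor, had 97.5, 110, 101, 157 and 85.3 normalized counts in nicotine libraries, against 48.0, 41.2, 40.2, 53.1 and 54.7 in controls (log2 change 1.18, SE 0.19, limma adjusted p = 8.67e-04). Eif2b3, its partner in the catalytic subcomplex, had 28.7, 50.7, 32.7, 69.7 and 46.9 in nicotine libraries, against 14.7, 20.2, 23.6, 18.3 and 18.2 in controls (log2 change 1.17, SE 0.26, limma adjusted p = 0.00517). Both were free of overlap, and the summed eIF2B counts, 282 to 397 in the nicotine group and 224 to 258 in controls, did not overlap either. That sum includes both called genes, and the other eIF2B genes did not pass (log2 changes -0.41 to 0.26). Eif2s1, which encodes the alpha subunit of eIF2 that the stress kinases phosphorylate, had 36.1 to 41.8 in nicotine libraries, with a mean of 39.2 ± 2.08, and 15.7 to 29.3 in controls, with a mean of 23.7 ± 5.28 (n = 5 each, log2 change 0.73, SE 0.21, limma adjusted p = 0.0205). The highest control lay below the lowest nicotine library.

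The called eIF3 genes were split, with 2 higher and 2 lower. Summed over 13 eIF3 genes, the counts were 2725 to 3121 in the nicotine group and 2225.5 to 2676 in controls, without overlap. Eif3c and Eif3a had the highest counts in this sum. It includes the called genes, Eif3c among them, so its separation is not independent of their calls. Eif3c, a core subunit, had 932, 843, 922, 1103 and 691 normalized counts in nicotine libraries, against 487, 437, 418, 313 and 479 in controls (log2 change 1.07, SE 0.17, limma adjusted p = 8.03e-04). Eif3b, a scaffold subunit, averaged 70.6 ± 7.36 in nicotine libraries and 43.9 ± 12.2 in controls (n = 5 each, log2 change 0.71, SE 0.21, limma adjusted p = 0.0218). Eif3g fell, with 42.4, 30.2, 56.4, 31.2 and 48.8 in nicotine libraries, against 81.3, 76.0, 69.9, 87.9 and 60.5 in controls (log2 change -0.86, SE 0.21, limma adjusted p = 0.00871). Eif3k also fell, with 122 ± 19.6 in nicotine libraries and 190 ± 42.9 in controls (log2 change -0.62, SE 0.18, limma adjusted p = 0.0226). None of these 4 genes overlapped between groups, and 9 of 13 eIF3 genes did not pass the test, Eif3a among them (671 ± 67.9 in nicotine libraries and 513 ± 122 in controls, adjusted p = 0.106).

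Among the genes of cap binding and unwinding, 1 rose and 4 fell. Eif4e3, a cap-binding relative of eIF4E, had 321, 484, 549, 549 and 254 normalized counts in nicotine libraries, against 236, 167, 239, 133 and 191 in controls (log2 change 1.12, SE 0.24, limma adjusted p = 0.00451), and the groups did not overlap. It shares 373 exon bases on the same strand with the predicted gene Gm20696, so its reads cannot be assigned with certainty. The helicase helpers were lower: Eif4h, a cofactor of eIF4A, averaged 88.1 ± 4.06 in nicotine libraries and 134 ± 29.1 in controls (log2 change -0.58, SE 0.17, limma adjusted p = 0.0234, no overlap), and Eif4b, another cofactor, had 150, 82.1, 83.6, 99.8 and 81.6 in nicotine libraries, against 192, 139, 124, 163 and 162 in controls (log2 change -0.67, SE 0.20, limma adjusted p = 0.0235). Eif4a2, the helicase itself in one of its gene copies, averaged 198 ± 23.8 in nicotine libraries and 282 ± 35.0 in controls (log2 change -0.51, SE 0.15, limma adjusted p = 0.0235), and Eif4a3, which acts in exon junction complexes, 93.6 ± 21.1 in nicotine libraries and 138 ± 22.9 in controls (log2 change -0.58, SE 0.20, limma adjusted p = 0.0452). For Eif4a2, Eif4b and Eif4a3, 4 of 5 nicotine libraries lay below all controls. Eif4e, Eif4g1 and Eif4a1 did not pass, with 94.6 ± 20.5, 880 ± 287 and 76.3 ± 23.8 in nicotine libraries, against 99.5 ± 47.6, 717 ± 190 and 60.1 ± 8.21 in controls.

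The eIF4E-binding proteins, which withhold eIF4E from eIF4G, did not pass in any direction in female gWAT. Eif4ebp1 averaged 144 ± 38.7 normalized counts in nicotine libraries and 186 ± 57.3 in controls, with an adjusted p of 0.315. Eif4ebp2 averaged 104 ± 25.7 in nicotine libraries and 124 ± 51.3 in controls, and Eif4ebp3 34.4 ± 5.31 in nicotine libraries and 26.2 ± 8.76 in controls (adjusted p = 0.649 and 0.202). Eif4ebp3 shares 501 exon bases on the same strand with the protein-coding gene AC115631.1, so its reads cannot be assigned with certainty in any tissue. The pseudogene Eif4a-ps4, left out by the rule, fell (33.4 ± 11.3 in nicotine libraries and 65.4 ± 21.6 in controls, limma adjusted p = 0.0259).

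Several measures moved with these groups, and their part in the result was not tested. Mitochondrial ribosomal RNA took 19.3% to 32.5% of reads in nicotine libraries and 8.23% to 13.0% in controls, and 8 macrophage genes summed to 144 to 326 in nicotine libraries and 435 to 929 in controls. The genes that rose had a median longest transcript of 3394 bases and those that fell 2108.5, against 2554 for all 47 genes. The same contrast held over all genes of the table with a known length. Their medians were 4123 for those called higher, 2417 for those called lower and 3193.5 for all tested. With the trend on transcript length and GC content removed from each library, 8 genes were called higher and 2 lower. Scaling by total reads moved the median of all genes to -0.36 and of initiation factor genes to -0.34, with 11 called lower. Leaving out the 2 controls with muscle or ovarian transcripts left 1 gene called lower. Eif2s1 and Eif3b were not called with total-read scaling (limma adjusted p = 0.215 and 0.186), and Eif3b lost its call without control 4 or control 5 (0.0527 and 0.0530).

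With the length and GC trend removed, Eif3g, Eif3k, Eif4h and Eif4a3 were no longer called (limma adjusted p = 0.0679, 0.344, 0.126 and 0.294). Eif3k lost its call without control 4 (0.0529) or nicotine library 2 (0.0543), and Eif4h without control 4 (0.0545). Eif4a2 lost it without control 1 or 3 or nicotine library 2 or 5 (0.0509 to 0.0534), and Eif4b without control 1 or nicotine library 2, 3 or 5 (0.0502 to 0.0603). Eif4a3 lost it without any of controls 1 to 4 or nicotine libraries 1 to 4 (adjusted p 0.0511 to 0.103). The authors' deposited table lists 8 of these genes higher and 7 lower, with Eif3f (log2 change -0.55, adjusted p = 0.0492) as the gene not called here.

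Eif4a2 hosts Snora81, a small nucleolar RNA gene on the same strand that shares 178 exon bases with it, and both moved, in opposite directions, in female gWAT. Eif4a2 also shares 129 and 125 exon bases on the same strand with the small nucleolar RNA genes Gm26447 and Gm24201. The reads of Eif4a2 therefore cannot be assigned with certainty, and whether this affected its fall was not tested. Snora81 had 2121, 2094, 277, 1677 and 605 normalized counts in nicotine libraries, against 49.98, 37.6, 40.2, 74.2 and 48.0 in controls (log2 change 4.40, limma adjusted p = 6.28e-05), while Eif4a2 fell. In female liver Snora81 fell, with 178 ± 55.6 in nicotine libraries and 289 ± 42.1 in controls (adjusted p = 0.0206), without overlap between groups, and Eif4a2 did not pass there (125 ± 21.1 in nicotine libraries and 107 ± 19.2 in controls). In male gWAT Snora81 had 2.72 to 44.2 in nicotine libraries and 26.3 to 83.4 in controls.

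**Figure D2:**
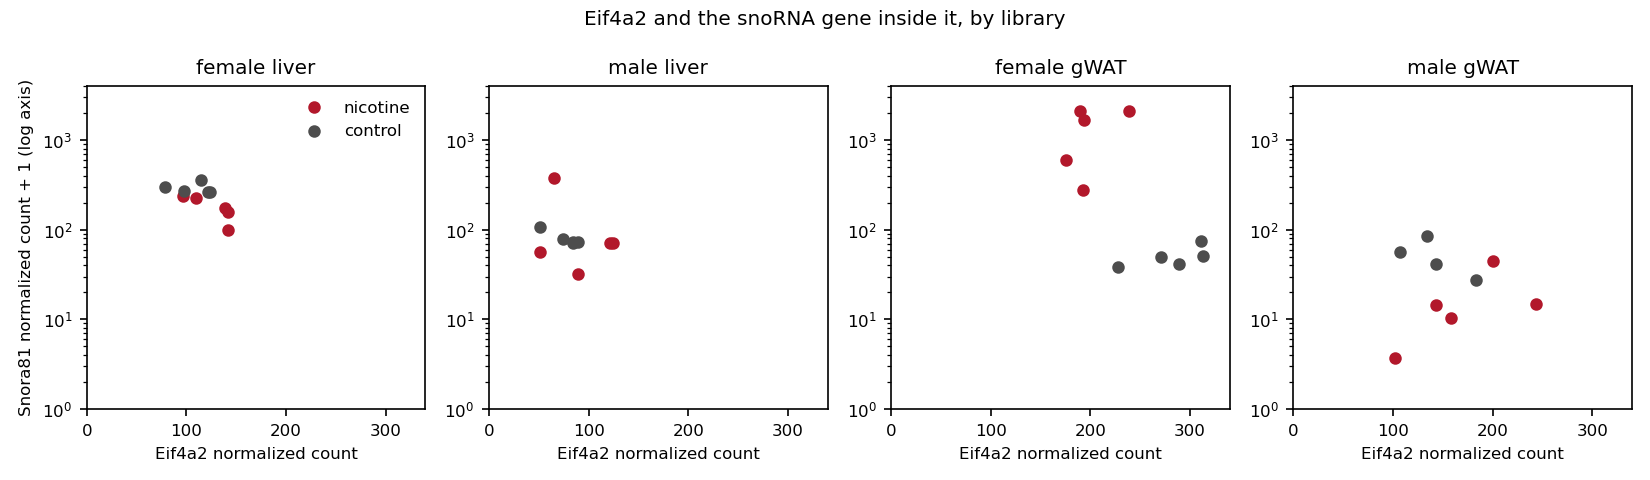
Snora81 against Eif4a2 normalized counts in each library, 1 panel per table, with Snora81 + 1 on a log axis. In female gWAT the nicotine libraries lie at 277 or more Snora81 counts, above all controls, and at lower Eif4a2 counts than most controls.

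Promoter windows of members that moved are shown for the motifs searched in 250 bases before the RefSeq start (GRCm38.p6) of 38 of 48 genes. These were the E-box CACGTG, the ETS motif GGAAGTG and the element TGATGCAA of ATF4 and CHOP, each on both strands. The terminal oligopyrimidine start was read instead in the first transcribed bases at the RefSeq start. CACGTG occurred in 8 of 38 genes (21.1%), against 7.61% of 17492 protein-coding genes, and GGAAGTG in 10 of 38 (26.3%), against 10.5%. TGATGCAA occurred in 0 of 38, against 0.926%, and the oligopyrimidine start in 2 of 38, against 2.67%. Of the genes called in female gWAT with a promoter, CACGTG was in 0 of 6 that rose and 2 of 6 that fell, GGAAGTG in 2 of 6 that rose (Eif3c and Eif5) and 1 of 6 that fell (Eif4a3), and TGATGCAA in 0 of 6 in both directions. The windows of the genes with the lowest p in each direction that hold a motif outside the transcribed part are given with the motif in capitals, 5′ to 3′ on the gene's strand, and Eif5b is given as the leading gene without one.
Eif3c (chr7:126566412-126566501, minus strand): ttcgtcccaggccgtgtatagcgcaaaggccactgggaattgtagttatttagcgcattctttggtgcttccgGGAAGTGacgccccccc
Eif3k (chr7:28981889-28981978, minus strand): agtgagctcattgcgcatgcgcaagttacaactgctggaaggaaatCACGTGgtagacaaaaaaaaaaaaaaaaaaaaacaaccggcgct
Eif4h (chr5:134639491-134639580, minus strand): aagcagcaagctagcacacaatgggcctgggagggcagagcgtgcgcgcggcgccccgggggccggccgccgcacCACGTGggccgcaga
Eif5b (chr1:37997920-37998009, plus strand): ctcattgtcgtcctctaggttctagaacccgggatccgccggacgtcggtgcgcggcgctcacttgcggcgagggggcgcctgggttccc

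In female liver 1 of 47 initiation factor genes rose (2.13%) and 0 fell, against 1.61% and 1.67% of 9173 genes. At an unadjusted p under 0.05 there were 3 higher and 5 lower, against 8.84% and 8.71% of all genes, and edgeR and DESeq2 also called 0 lower. The gene was Eif5a, whose product carries the modified lysine hypusine and aids elongation and termination. It had 156, 128, 172, 194 and 161 normalized counts in nicotine libraries, against 125, 122, 106, 136 and 97.4 in controls (log2 change 0.46, SE 0.12, limma adjusted p = 0.0415). Every control was exceeded by 4 of 5 nicotine libraries. The call ended without nicotine library 1, 3, 4 or 5 or without control 1, 2, 3 or 5 (adjusted p 0.0577 to 0.124), with the length and GC trend removed (0.0631) and without the 2 libraries with muscle transcripts (0.0700).

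Eif2s1 in female liver had 36.4, 40.9, 48.3, 38.2 and 38.2 normalized counts in nicotine libraries, against 21.4, 28.0, 40.3, 18.1 and 23.7 in controls, with 1 control inside the nicotine range (log2 change 0.65, SE 0.19, limma adjusted p = 0.0742, or 0.0149 without control 3). Eif3l, an eIF3 subunit, averaged 101 ± 23.4 in nicotine libraries and 136 ± 10.9 in controls, and Eif4e2, a cap-binding repressor, 81.0 ± 12.2 in nicotine libraries and 108 ± 15.1 in controls (n = 5 each, limma adjusted p = 0.0904 for both). Eif3l passed without nicotine library 1 (0.0363) and Eif4e2 without nicotine library 2 (0.0475). Groups did not overlap for 1 higher gene (Eif4g3) and 1 lower gene (Eif4a3), against 2.25% and 2.49% of all genes. Summed over 13 eIF3 genes, the counts were 1698 to 1833 in the nicotine group and 1896 to 1962 in controls, and these ranges did not overlap. Other measures also differed between these groups. The 4 endothelial genes summed to 440 to 536 in nicotine libraries and 625 to 655 in controls, without overlap. Mitochondrial ribosomal RNA took 16.5% to 19.4% of reads in nicotine libraries and 18.9% to 20.7% in controls. The part of these measures in the female liver results was not tested. The binding proteins did not pass. Eif4ebp1 averaged 42.3 ± 11.2 in nicotine libraries and 37.1 ± 8.66 in controls, and Eif4ebp2 181 ± 22.9 in nicotine libraries and 170 ± 22.5 in controls. Eif4ebp3 had 95.3 to 190 in nicotine libraries and 114 to 350 in controls, so that its spread was widest in controls.

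The genes that led in female gWAT did not pass in female liver. Eif5b averaged 414 ± 40.0 normalized counts in nicotine libraries and 432 ± 31.2 in controls, Eif3c 263 ± 20.8 in nicotine libraries and 286 ± 16.2 in controls, and Eif5 576 ± 46.7 in nicotine libraries and 622 ± 39.3 in controls (n = 5 each, limma adjusted p = 0.768, 0.494 and 0.517). Eif2b5 averaged 55.9 ± 8.32 in nicotine libraries and 61.3 ± 4.81 in controls (adjusted p = 0.632). Eif4e and Eif4g1 overlapped between groups, with Eif4e at 81.8 ± 7.17 in nicotine libraries and 95.4 ± 18.2 in controls, and Eif4g1, the scaffold of the complex, at 877 ± 44.6 in nicotine libraries and 893 ± 22.9 in controls (adjusted p = 0.455 and 0.888).

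In male liver 0 of 47 initiation factor genes passed by limma, against 0.022% higher and 0.033% lower of 9093 genes; 8 were higher and 0 lower at an unadjusted p under 0.05 (6.93% and 7.61% of all genes), and DESeq2 called 1. The mean log2 change was above 0 for 34 of 47 genes (72.3%), against 50% of all genes, and the median was 0.12 against 0.00. The gene called by DESeq2 was Eif1a, 1 of the genes for eIF1A, which guides start codon scanning. It had 180, 131, 146, 133 and 144 normalized counts in nicotine libraries, against 84.1, 113, 100, 81.2 and 97.5 in controls (log2 change 0.62, SE 0.14, limma adjusted p = 0.122, DESeq2 adjusted p = 0.0112), without overlap. The authors' deposited table lists it with an adjusted p of 0.0175. Its reads may be shared with Eif1ax, which encodes a near-identical protein.

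The other genes of smallest p in male liver were Eif1ad, with an eIF1A-like domain (45.6 ± 5.42 in nicotine libraries and 34.2 ± 3.88 in controls), Eif3g (86.6 ± 8.86 in nicotine libraries and 66.0 ± 12.4 in controls) and Eif3j1 (152 ± 13.1 in nicotine libraries and 125 ± 6.17 in controls), with limma adjusted p of 0.253, 0.290 and 0.293. Eif1ad and Eif3j1 did not overlap between groups, and with Eif1a these were the 3 genes higher without overlap and 0 were lower, against 1.31% and 1.85% of all genes. Eif3j1 shares 1107 exon bases with Spg11, and Eif1ad 428 with Banf1, both on the opposite strand, and the use of strand in counting is not given in the sources used here. A further pair of genes followed the 2 nicotine libraries low in male-biased genes. Eif6 had 130 and 129 normalized counts in nicotine libraries 1 and 5, against 48.7 to 56.3 in nicotine libraries 2 to 4 and 31.9 to 63.8 in controls. Eif4ebp3 had 142 in both, against 602 to 687 in nicotine libraries 2 to 4 and 405 to 663 in controls. These 2 libraries decide both group means. Macrophage genes summed to 252 to 471 in nicotine libraries and 178 to 279 in controls. The highest sums were those of nicotine libraries 1 and 5 (471 and 400), and the next library had 287. The 4 proliferation genes also stood apart in nicotine libraries 1 and 5 (110 and 75.3), with at most 19.0 in any other library.

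Among the regulators in male liver, Eif5a had 187, 170, 174, 175 and 158 normalized counts in nicotine libraries, against 135, 127, 64.7, 140 and 179 in controls, with 1 control inside the nicotine range (limma adjusted p = 0.323). Eif2s1 averaged 39.7 ± 7.62 in nicotine libraries and 30.9 ± 9.10 in controls, and Eif4ebp1 61.6 ± 17.2 in nicotine libraries and 46.8 ± 11.9 in controls (adjusted p = 0.432 and 0.453). Eif4ebp2 averaged 159 ± 38.1 in nicotine libraries and 172 ± 2.96 in controls, with a wider spread in the nicotine group. Eif5b and Eif5, which rose in female gWAT, did not pass: Eif5b averaged 426 ± 31.5 in nicotine libraries and 423 ± 44.3 in controls, and Eif5 607 ± 119 in nicotine libraries and 605 ± 24.3 in controls (n = 5 each, adjusted p = 0.966 and 0.973).

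**Figure D3:**
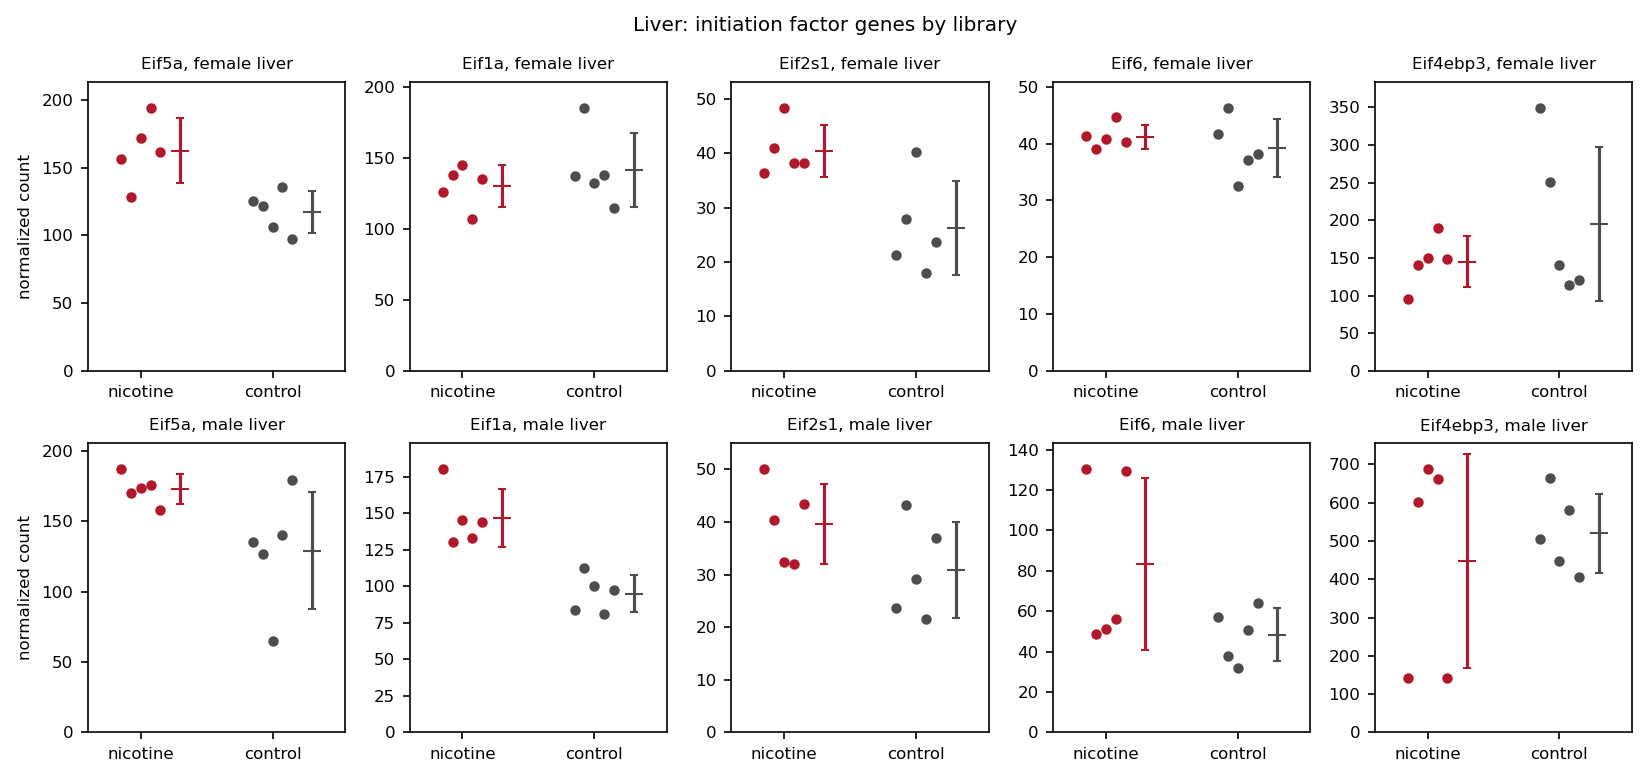
Normalized counts (vertical axes, from 0) of 5 genes in female liver (top) and male liver (bottom), 1 point per library, with mean and SD. Eif1a does not overlap in male liver and overlaps in female liver, and nicotine libraries 1 and 5 stand apart for Eif6 and Eif4ebp3 in male liver.

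In male gWAT 0 of 48 initiation factor genes passed in either direction, by limma, edgeR or DESeq2, and 0 had an unadjusted p under 0.05, against 0.856% of 11210 genes higher and 0.767% lower at that level and 0% at the adjusted threshold. The smallest p-values belonged to Eif1, a scanning factor, with 387, 455, 429, 547 and 449 normalized counts in nicotine libraries against 371, 391, 408 and 345 in controls (limma adjusted p = 1.00); to Eif2d, which can deliver transfer RNA without GTP (17.0 ± 6.45 in nicotine libraries and 11.8 ± 3.94 in controls); to Eif4ebp1 (211 ± 75.0 in nicotine libraries and 160 ± 57.4 in controls); and to Eif2s3y, a Y-linked gene of the eIF2 gamma subunit that averaged 59.3 ± 9.39 in nicotine libraries and 50.4 ± 10.1 in controls (n = 5 and 4). Eif4ebp2 had 5.44 in nicotine library 4, which also had the lowest mitochondrial ribosomal RNA share (0.454% of reads), against 145 to 216 in the other nicotine libraries and 59.0 to 180 in controls.

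**Figure D4:**
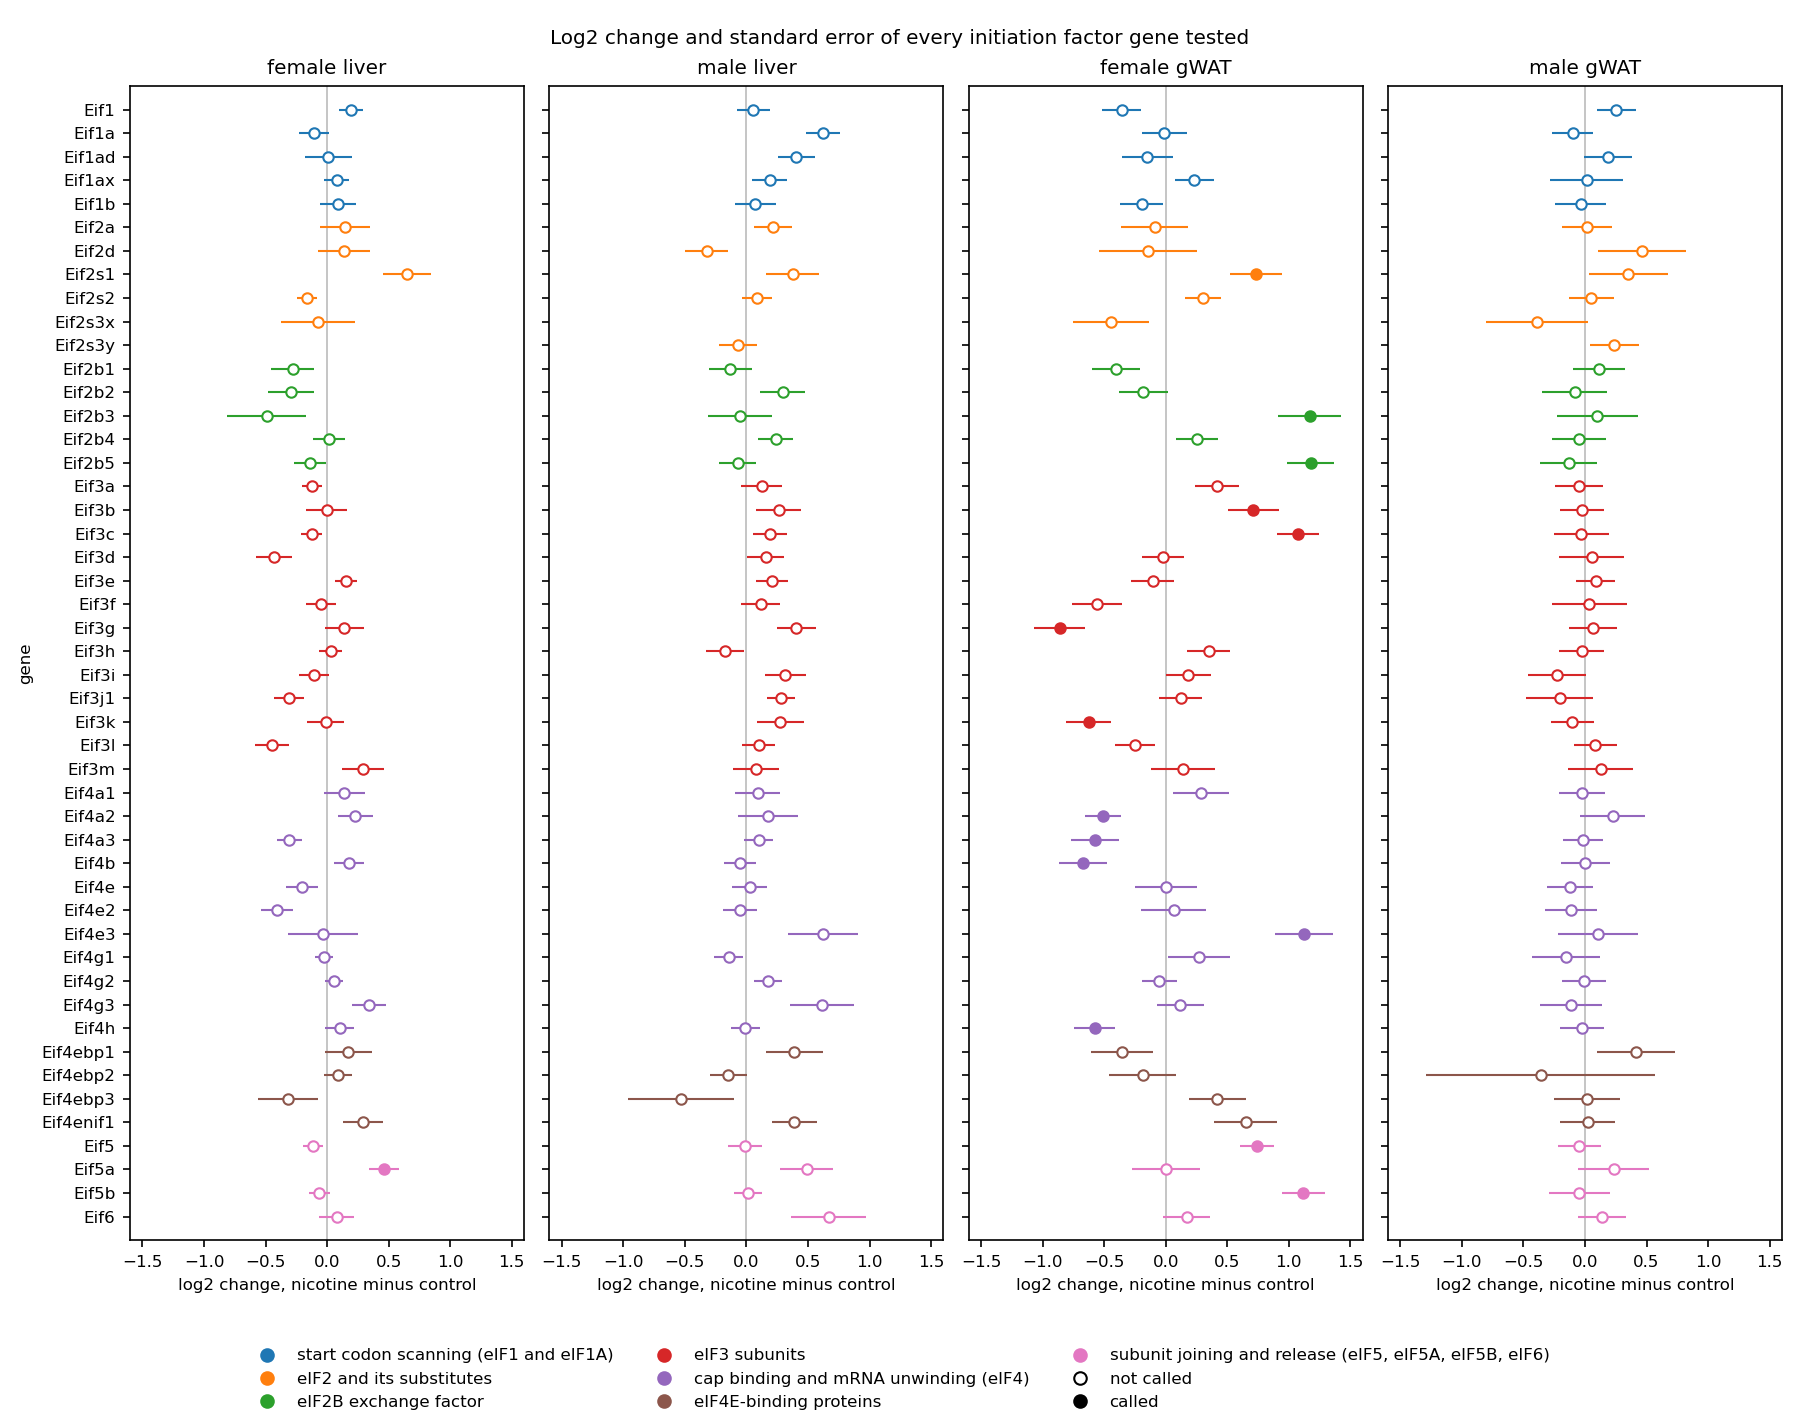
Log2 change (nicotine minus control, horizontal axis) with its standard error for every initiation factor gene tested, 1 panel per table, coloured by role, with filled points for genes called at an adjusted p under 0.05. Filled points are found in female gWAT (8 higher, 6 lower) and for Eif5a in female liver.

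Whether daughters and sons differed was tested as the male change minus the female change. In gWAT 4 of 47 genes were lower and 1 higher at an adjusted p under 0.05, against 4.44% and 4.43% of 10042 genes. The male change was below the female one for Eif2b5 (difference -1.31, SE 0.30, limma adjusted p = 0.0115), Eif3c (-1.10, SE 0.28, 0.0185), Eif5b (-1.17, SE 0.30, 0.0205) and Eif5 (-0.78, SE 0.21, 0.0233). For Eif3g it was above the female one (0.92, SE 0.28, 0.0465), at 0.06 in males against -0.86 in females. In the male nicotine group Eif2b5, Eif3c, Eif5b, Eif5 and Eif3g averaged 65.1 ± 10.9, 542 ± 126, 366 ± 94.8, 488 ± 75.4 and 79.4 ± 13.1 normalized counts, and in male controls 73.1 ± 21.8, 550 ± 112, 376 ± 91.2, 501 ± 53.4 and 76.2 ± 13.8. Of 19 fits that each left out 1 library, Eif2b5 was called in 19, Eif3c and Eif5 in 18 each, Eif5b in 17 and Eif3g in 6. Eif3c lost its call without male control column 4 (limma adjusted p = 0.0516), Eif5 without male control column 3 (0.0518) and Eif5b without either (0.0550 and 0.0501), while Eif3g lost it in 13 fits (0.0522 to 0.111) over all 4 groups. Without the 2 female controls with muscle or ovarian transcripts, Eif3c, Eif5b, Eif5 and Eif3g were not called (0.0673, 0.0716, 0.0650 and 0.131). Eif3g was also not called without a filter on low counts (0.0685) or without the 2 male libraries with epididymal transcripts (0.0518). In liver 1 of 46 genes was higher, Eif1a (0.73, SE 0.19, limma adjusted p = 0.0477), and 0 were lower, against 0.701% and 0.862% of 8699 genes; at an unadjusted p under 0.05 there were 7 higher and 0 lower, against 7.69% and 8.66%. The next gene was Eif3j1 (0.60, SE 0.16, adjusted p = 0.0618). The Eif1a call held in 5 of 20 fits that each left out 1 library.

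Between tissues, control values were described in RPM (reads scaled to the same library total) without a test because the tables were scaled separately. Values were higher in gWAT than in liver in both sexes without overlap for 12 of 48 genes. They were higher in liver for 1, separated in 1 sex only for 12, and overlapped in both sexes for 23. The share over all genes was not computed, so no tilt particular to these genes can be read from the counts. Eif4e3 had medians of 128 in female gWAT and 10.1 in female liver, and of 164 in male gWAT and 8.16 in male liver. Eif4ebp1, a translational repressor under mTORC1, had 124 in female gWAT and 18.0 in female liver, and 101 in male gWAT and 26.0 in male liver. Eif4ebp3 was the gene higher in liver, with 15.4 in female gWAT and 71.5 in female liver, and 23.6 in male gWAT and 260.0 in male liver. Its reads may be shared with AC115631.1, as said above.

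**Figure D5:**
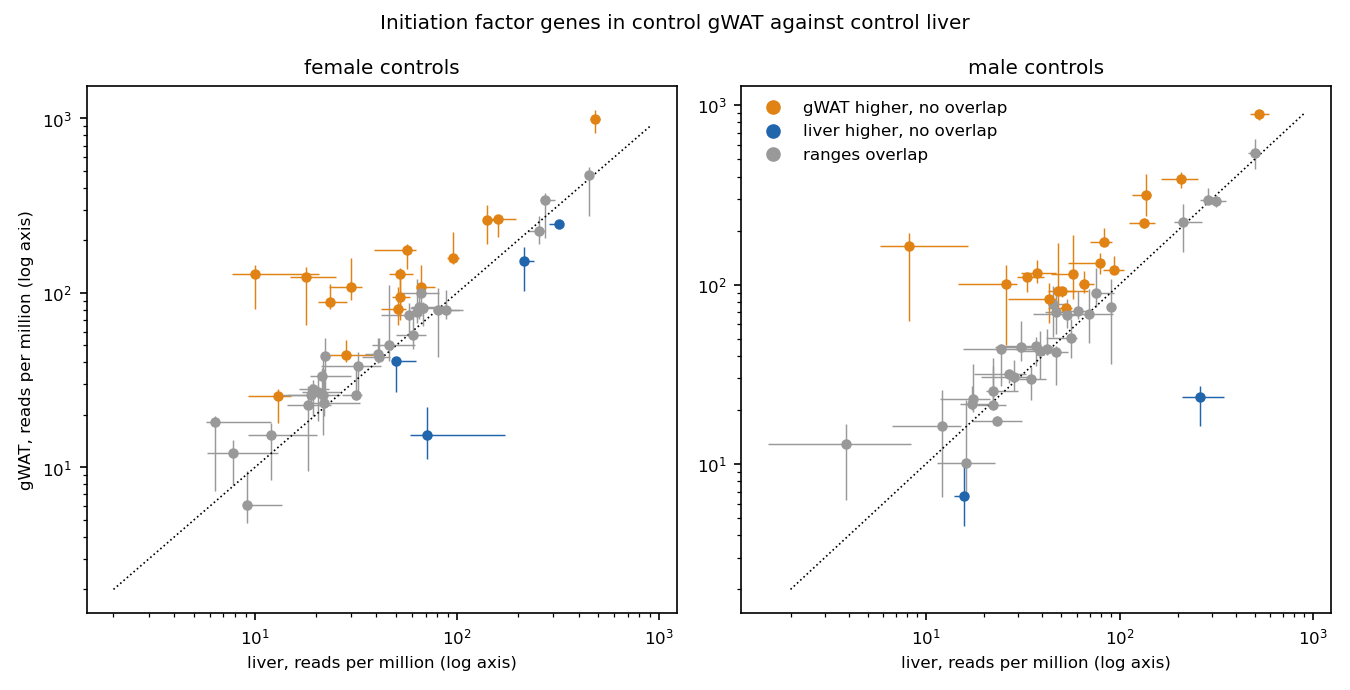
Median RPM in control libraries of gWAT (vertical) against liver (horizontal), both log axes, with bars from the lowest to the highest library. Orange points lie above all liver controls and blue points below them; 12 genes were orange in both sexes.

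Related genes outside the rule were counted from lists of the pathway, and the counts in female gWAT stand beside the 12.4% of all genes that rose and the 12.8% that fell there. In female gWAT 8 of 24 tested genes on the list of initiation partners rose and 0 fell, and the rest did not pass. The median log2 change was 0.43. Pabpn1 was counted among the 8 by its place on the list, and its part in initiation was not tested. Pabpc1, the poly(A)-binding protein that joins the message ends through eIF4G, averaged 1071 ± 243 normalized counts in nicotine libraries and 625 ± 206 in controls (limma adjusted p = 0.0182). Gigyf2, a partner of the repressor eIF4E2, averaged 170 ± 29.1 in nicotine libraries and 83.5 ± 10.7 in controls (adjusted p = 9.60e-04), and Ddx3x, an RNA helicase, 1477 ± 213 in nicotine libraries and 888 ± 240 in controls (adjusted p = 0.00973). Of 20 genes of mTORC1 and MNK control 3 rose and 2 fell. Deptor, an mTOR inhibitor, averaged 552 ± 273 in nicotine libraries and 238 ± 62.4 in controls (adjusted p = 0.00783), and Rps6kb1, the kinase of ribosomal protein S6, 256 ± 50.3 in nicotine libraries and 143 ± 14.7 in controls (adjusted p = 0.00318). Of 11 elongation and termination factors 1 rose and 2 fell, among them Eef2, the translocation factor, with 928 ± 154 in nicotine libraries and 1661 ± 320 in controls (adjusted p = 0.00419). Eif2ak4, the amino acid sensing eIF2 kinase, was the 1 of 11 eIF2 kinase and phosphatase genes to rise (39.3 ± 15.9 in nicotine libraries and 20.3 ± 4.17 in controls, adjusted p = 0.0285), and of 9 mitochondrial initiation and translation genes Mtif2, which brings the initiator transfer RNA to mitochondrial ribosomes, rose (108 ± 19.9 in nicotine libraries and 43.2 ± 13.5 in controls, adjusted p = 0.00102). Of 9 hypusination and polyamine genes 2 rose (Amd1 and Azin1) and 2 fell (Dohh, the hydroxylase that completes hypusine, and Srm, spermidine synthase). In female liver, where 1.61% of all genes rose, Mknk2, a kinase of eIF4E, was the 1 of 15 genes of mTORC1 and MNK control to rise (77.8 ± 12.9 in nicotine libraries and 53.4 ± 8.19 in controls, adjusted p = 0.0483), and no list gene passed in the male tables.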

How the data were processed

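Per the file headers, the 4 deposited tables give normalized counts, a signal obtained by the authors from gene counts divided by 1 size factor for each library. The authors' deposited tables also hold log2 fold changes, p-values and adjusted p-values. Tools listed in the submitters' processing notes are cutadapt, STAR and DESeq2, with the mm10 genome. Their versions, the annotation and the use of strand in counting are not given in the sources available. RNA came from Zymo columns and 3′-tag libraries, per the labels' protocols. Whole reads were recovered within 0.1 reads for the alternatives. In male gWAT 4 control columns were used, unnumbered.

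Members and lists were chosen with earlier results of these data known. limma 3.58.1 (R 4.3.3, mean trend) tested log2(normalized count + 1) where a gene's mean reached 10, and p-values were adjusted by Benjamini-Hochberg over all genes of a table (threshold 0.05). That scale understates the change of low genes. Named genes were those called in any table, the 4 of smallest p per table, the 2 of smallest sex difference p per tissue, and a fixed set of regulators. Alternatives used edgeR 4.0.16, DESeq2 1.42.0, pseudocounts of 0.5 and 5, no filter, a mean of 50 or more, quantile and total-read scaling, a replicate block and leaving out libraries. Those removing length and GC trends or pairs of libraries were chosen after seeing the data, as were the 5 male-biased genes, and Snora81, Rev1, Eif4a-ps4, Eif3f and Eif4g3 were named after their values were seen. Locations came from GENCODE M21 and promoters from RefSeq. The code was tested on simulated data. Python 3.11.15, pandas 2.3.3, NumPy 2.4.6 and matplotlib 3.10.9 were used.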

Additional observations from a re-analysis of the deposited data

Results flagged for a closer look

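Of 206 groups of 4 or 5 libraries of named genes, 7 held a library farther from the others than Dixon's 95% limit (3.40%, where chance gives about 5%). In female gWAT, nicotine library 1 was the highest of its group for Eif4a2 (238, others 175 to 194), Eif4b (150, others 81.6 to 99.8) and Eif4ebp3 (43.6, others 30.2 to 33.8 normalized counts). In the same tissue, control library 2 stood high for Eif4e (183, others 70.7 to 92.5), and control library 1 low for Eif6 (36.3, others 45.4 to 48.6). Control library 3 stood low for Eif3g in male liver (44.3, others 67.2 to 73.9) and control library 3 high for Eif4a3 in male gWAT (253, others 199 to 207).

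The interaction of exposure with sex passed the threshold for 6 genes. In gWAT the male change minus the female change was -1.31 for Eif2b5, -1.10 for Eif3c, -1.17 for Eif5b, -0.78 for Eif5 and 0.92 for Eif3g on the log2 scale, and in liver it was 0.73 for Eif1a. The calls of Eif3g and Eif1a held in 6 of 19 and 5 of 20 fits that each left out 1 library.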

How the results depend on the processing

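Counts of genes called higher in female gWAT stayed within 1.5 times of 8 under every alternative run. The 6 called lower became 2 with the length and GC trend removed, 11 with total-read scaling and 3 with the replicate block. They became 1 without the 2 control libraries with muscle or ovarian transcripts. The median log2 change there became 0.0921 with the trend removed, -0.34 with total-read scaling and 0.12 without those 2 libraries, from 0.00. In female liver the 1 gene called higher became 0 with the trend removed and without the 2 libraries with muscle transcripts. In male liver DESeq2 called 1 gene higher instead of 0, and the median of 0.12 became 0.16 with DESeq2, 0.16 with edgeR, 0.0861 with the trend removed, 0.18 with quantile normalization and 0.23 with total-read scaling, which also moved the median of all genes to 0.11.

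The liver sex difference of 1 gene higher became 2 at a mean of 50 or more, 0 without a filter, 0 without the 2 libraries low in male-biased genes, 2 without those with muscle or pancreas transcripts and 0 without the female ones with muscle transcripts. The gWAT sex difference of 1 gene higher became 0 without a filter and 0 without either pair of libraries left out, and the 4 lower became 1 without the female pair. The cause of these changes was not tested.

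Leaving out each library in turn gave 0 to 1 higher, 0 to 1 lower and a median of -0.0225 to 0.0503 in female liver. It gave a median of 0.11 to 0.16 and 0 calls in male liver, 7 to 9 higher, 2 to 6 lower and a median of -0.0194 to 0.11 in female gWAT, and 0 calls in male gWAT. For the sex difference it gave 0 to 2 higher in liver, and 0 to 2 higher and 2 to 6 lower in gWAT. Same-numbered nicotine and control libraries did not deviate together (correlations of -0.28 to 0.17 in female gWAT), so numbers were not treated as pairs, and the block changed no other count by more than 1.5 times. In male gWAT no paired analysis was possible because the control columns could not be matched to numbered samples. Of 77 further named gene and table pairs, 39 changed sign under at least 1 alternative, and their log2 changes are not given.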
